A study of Mus musculus with 14 samples.

Results

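The Hox genes of mouse hind limb skeletal muscle are described here in wild-type (WT) mice and in mice lacking Myf6, with and without injury. The 39 genes were chosen by name alone: every row of both expression tables whose symbol is Hox, a cluster letter from a to d and a number was taken, which gave 39 of the 49585 genes in each table. They comprise 11 Hoxa, 10 Hoxb, 9 Hoxc and 9 Hoxd genes.

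RNA of hind limb muscle was sequenced in 4 groups of 3 libraries, namely uninjured WT, uninjured Myf6 knockout (KO), injured WT and injured Myf6 KO. Myf6 (MRF4) belongs with Myod1 and Myog to the myogenic transcription factors, and is the one most abundant in mature muscle fibres. The knockout allele, the strain, age and sex of the mice, the muscles taken, and the type and timing of the injury are not given in the sources used here. The sample descriptions carry the same 3 numbers, with L or R, in the uninjured and injured libraries of a genotype, and the number was read as the animal, with both limbs of 3 WT and 3 KO mice sampled. The labels do not say what the number stands for, so every mention of an animal rests on this reading. Genotype and any litter or batch of the animals cannot be told apart. The series also holds ChIP-seq peaks of Myf6, precipitated through a Flag tag from cultured primary myotubes (1 library, with 1 control).

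Hox genes encode homeodomain transcription factors and lie in 4 clusters, named a to d, in which genes of the same number are related by descent and called paralogs. Genes of low number act towards the head and genes of high number towards the tail of the embryo, and in the limb bud the high numbers of the a and d clusters pattern the parts from shoulder or hip to digits. Adult limb tissues retain part of this regional pattern. Genes of the c cluster with high numbers are known for activity in the hind limb and not the forelimb.

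The 12 libraries held 1880087 to 49392472 reads assigned to genes, and uninjured WT replicate 2 was the shallowest by far. Values are in RPM, reads scaled to a total of 1000000 per library, and are not divided by gene length, so levels are compared between libraries for 1 gene. Where genes are ordered or summed by RPM, this describes where the reads fell, to which gene length contributes, and not the level of one gene against another. The floor taken for detection, 3 reads, corresponded to 0.0607 to 1.60 RPM, and floors cover counting error only. Myf6 itself read 25.0 to 121 RPM in the 6 WT and 1.86 to 3.46 RPM in the 6 KO libraries, so it separated every library by its genotype label. Of 11 lists of cell type markers, the muscle fibre list (8 of 8 genes with reads) summed to 120304 to 190104 RPM. In the skin list of 4 keratins, Krt5 had no read in any library, Krt14 and Krt1 reached at most 0.0405 and 0.0535 RPM, and Krt10 read 2.96 to 5.32 RPM in all 12 libraries. Injured KO replicate 2 stood apart from the other 11 libraries in 2 marker lists. Its Schwann cell markers summed to 726 RPM against 56.4 to 433 RPM elsewhere, and its endothelial markers to 454 RPM against 171 to 276 RPM. Its share of reads in mitochondrial genes was 23.2%, against 4.95% and 4.30% in injured KO replicates 1 and 3. That share was near the 22.3% of uninjured WT replicate 2, and the other libraries began at 3.63%. Uninjured KO replicate 2 had reads in 14065 genes only, at 12704445 reads.

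Of the 39 Hox genes, 34 had at least 1 read in some library and 5 had none in any. The genes without a read were Hoxb1, Hoxb13, Hoxc12, Hoxd11 and Hoxd12. With 3 reads as the limit that a count of 0 allows, their level as counted over all 12 libraries together was at most 0.00949 RPM. Another 22 genes had a mean of at least 1 RPM, and 12 genes had reads but a mean below 1 RPM. Reads were found in all 12 libraries for 20 genes, and 13 genes had at least 3 reads in every library.

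Reads came mostly from the middle to high paralog numbers. Paralogs 8 to 11, which are 13 genes, gave 80.5% ± 3.14 (SD, n = 3) of the summed Hox RPM in uninjured WT, 85.7% ± 4.95 in uninjured KO, 83.0% ± 4.52 in injured WT and 82.1% ± 12.4 in injured KO. The injured KO libraries held 88.6%, 67.8% and 89.7%, so replicate 2 set that spread. Paralogs 4 to 7, 12 genes, gave 8.87% to 28.7% per library. Paralogs 1 to 3, 8 genes, gave 0.182% to 3.42%, and paralogs 12 and 13, 6 genes, gave at most 1.33%. Low and highest numbers were thus thinly covered in all 4 groups.

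**Figure D1:**
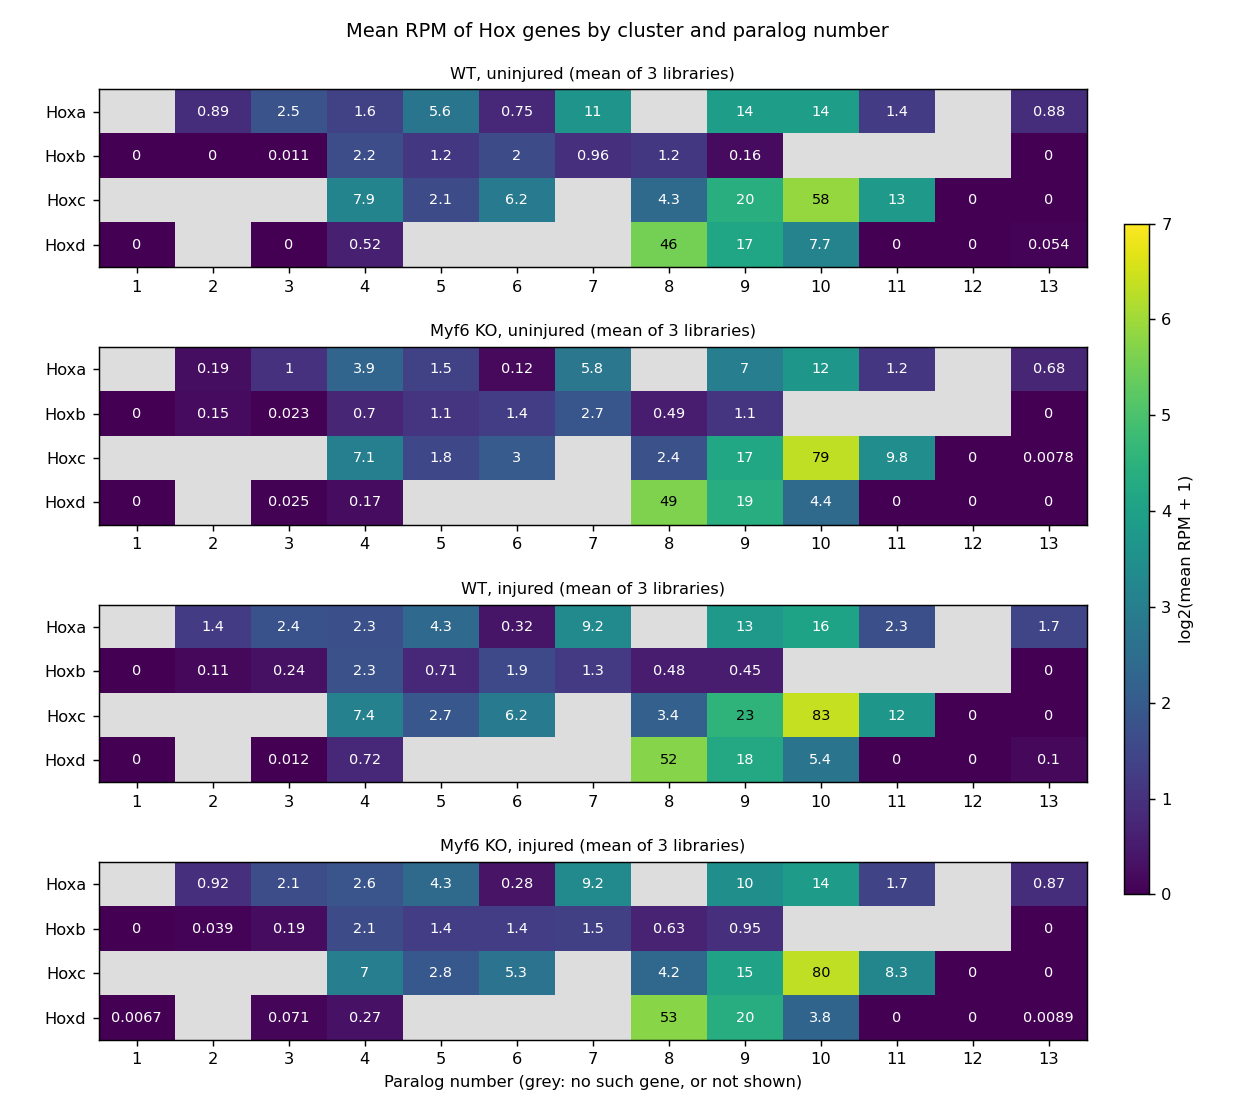
Mean RPM of Hox genes, printed in its cell, with 1 panel for each group of 3 libraries. Rows are the clusters, columns the paralog numbers, colour is log2(mean RPM + 1) and grey marks numbers that a cluster lacks or that are not shown. Cells with values above 10 lie at paralogs 7 to 11 in uninjured WT, 8 to 11 in injured WT and 8 to 10 in the KO panels. The cells of Hoxb1, Hoxb13, Hoxc12, Hoxd11 and Hoxd12 are at 0.

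Within the d cluster the reads stopped between neighbouring genes. Hoxd8, Hoxd9 and Hoxd10 had at least 3 reads in all 12 libraries, with 17020, 6223 and 1573 reads in all. Hoxd11 and Hoxd12, the next genes on the chromosome, had none, and Hoxd13 had 14 reads spread over 3 libraries. On the other side, Hoxd4 had 118 reads, Hoxd3 had 8 and Hoxd1 had 1. The annotated spans of Hoxd10 and Hoxd11 overlap, so reads of Hoxd11 could be split or dropped, whereas Hoxd12 overlaps no other annotated gene. Hoxd11 to Hoxd13 are the genes known for patterning the forearm, shank and digits in the limb bud.

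The c cluster showed the same kind of edge at another number: Hoxc10 had 27017 reads and Hoxc11 had 3225, whereas Hoxc12 had none and Hoxc13, known for its part in hair and nails, had 1. In the a cluster all 11 genes had reads, down to 109 for Hoxa6, and the highest number, Hoxa13, had 389. Hoxa13 and Hoxa11, which pattern the hand or foot and the forearm or shank in the embryo, read 0 to 3.93 RPM and 0 to 5.28 RPM across libraries. The b cluster had reads for 8 of its 10 genes.

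Sequence upstream of the genes at the d cluster edge, and of the 2 genes whose genotype differences are described first further on, is shown from RefSeq (build GRCm38.p6). Each window is the 250 bases before an annotated start, written 5′ to 3′ on the strand of the gene, with every E-box (CANNTG, the kind of motif that Myf6 and its relatives bind) in capitals. Hoxd11 has 2 annotated starts. Windows were found for 22 of the 39 genes.
Hoxd11, start 1 (chr2:74679308-74679557, plus strand): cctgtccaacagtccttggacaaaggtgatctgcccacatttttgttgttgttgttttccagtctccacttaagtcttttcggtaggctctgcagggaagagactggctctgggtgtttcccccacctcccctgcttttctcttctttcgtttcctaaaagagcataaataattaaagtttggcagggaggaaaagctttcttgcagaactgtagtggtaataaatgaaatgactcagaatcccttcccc
Hoxd11, start 2 (chr2:74682073-74682322, plus strand): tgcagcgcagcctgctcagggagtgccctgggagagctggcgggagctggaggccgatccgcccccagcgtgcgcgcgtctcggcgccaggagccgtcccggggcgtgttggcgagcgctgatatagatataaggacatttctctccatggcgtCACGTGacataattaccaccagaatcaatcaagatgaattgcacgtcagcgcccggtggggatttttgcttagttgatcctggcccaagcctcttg
Hoxd10 (chr2:74691641-74691890, plus strand): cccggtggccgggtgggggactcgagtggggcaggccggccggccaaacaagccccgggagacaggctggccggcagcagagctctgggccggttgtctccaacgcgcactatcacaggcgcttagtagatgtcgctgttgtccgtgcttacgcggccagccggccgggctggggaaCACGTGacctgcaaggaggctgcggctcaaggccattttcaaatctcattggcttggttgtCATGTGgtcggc
Hoxa5 (chr6:52204588-52204837, minus strand): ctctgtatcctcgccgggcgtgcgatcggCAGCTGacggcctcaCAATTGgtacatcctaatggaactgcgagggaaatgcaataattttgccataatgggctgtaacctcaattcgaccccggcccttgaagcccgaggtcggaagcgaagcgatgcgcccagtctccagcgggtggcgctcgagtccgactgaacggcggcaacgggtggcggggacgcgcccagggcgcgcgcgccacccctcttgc
Hoxa9 (chr6:52227371-52227620, minus strand): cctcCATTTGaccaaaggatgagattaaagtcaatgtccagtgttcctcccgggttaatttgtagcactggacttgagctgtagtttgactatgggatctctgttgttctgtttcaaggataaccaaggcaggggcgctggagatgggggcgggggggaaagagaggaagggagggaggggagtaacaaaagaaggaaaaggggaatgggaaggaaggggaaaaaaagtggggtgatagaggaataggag

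The windows of Hoxd10 and Hoxa5 held 2 E-boxes each, those of Hoxa9 and the second Hoxd11 start 1 each, and the first Hoxd11 start none. An E-box was present in 17 of the 24 Hox windows (70.8%) and in 66.2% of all 32851 windows of the table, so it was about as common as elsewhere. CAGCTG, an E-box that myogenic factors bind well, was present in 3 of 24 Hox windows, 12.5%, against 13.001% of all. TATAAA was found in 4 of 24 (16.7%, against 12.4% of all), and TGATNNAT, a motif of Hox proteins bound with Pbx partners, also in 4 of 24 (16.7%, against 7.68% of all). Motifs were searched on both strands, and CAGCTG is one of the CANNTG forms. These matches are a description of letters and not of binding.

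No Myf6 peak overlapped any of the 24 Hox windows, which cover 22 of the 39 genes. The share of all windows with a peak is not given here, so this count does not set Hox promoters apart from others. The authors' list of 12898 peaks held 3 between the first and the last Hox gene of a cluster, summed over the 4 clusters and 492 kb, which is 6.10 peaks per Mb against 5.34 per Mb between the first and last peaks of the autosomes. One lay inside the span of Hoxb3 (chr11:96333492-96333649, fold enrichment 10.1), 15.3 kb from the start of Hoxb4. Another lay inside the span of Hoxd3 (chr2:74740731-74740870, fold enrichment 7.22), and the last lay 3.63 kb from the start of Hoxd3 (chr2:74708274-74708465, fold enrichment 4.64). Within 100 kb of the clusters there were 9 peaks, and the one of highest fold enrichment, 15.9, lay 48.0 kb from Hoxb1 (chr11:96413603-96413836). Over all peaks the median fold enrichment was 7.68. The peaks came from myotubes in culture and 1 library, so they have no replicate check.

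The 12 Hox genes with the highest mean RPM are described next in every library, replicates 1, 2 and 3 in order. Hoxc10, known for hind limb and lumbar identity, read 62.8, 37.8 and 73.8 RPM in uninjured WT, 81.6, 41.2 and 115 RPM in uninjured KO, 71.0, 97.0 and 81.7 RPM in injured WT, and 103, 35.1 and 101.4 RPM in injured KO. The lowest libraries of 3 groups were their replicates 2, and the genotypes overlapped in both states. Hoxd8, a gene of trunk and limb, read 49.0, 35.1 and 52.5 RPM, then 51.5, 32.4 and 62.9 RPM, 48.5, 64.0 and 42.3 RPM, and 52.4, 41.9 and 64.8 RPM in the same order of groups. Its ratio of highest to lowest library was the narrowest among these 12 genes.

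Hoxc9, known for thoracic identity in the spinal cord, read 19.4, 23.4 and 18.2 RPM in uninjured WT, 21.5, 17.6 and 13.05 RPM in uninjured KO, 24.5, 14.8 and 28.7 RPM in injured WT, and 15.2, 17.7 and 13.3 RPM in injured KO. Hoxd9 read 11.9, 13.8 and 23.8 RPM, 17.4, 17.2 and 23.7 RPM, 14.03, 24.7 and 14.01 RPM, and 21.6, 14.3 and 23.1 RPM. Both genes overlapped between the genotypes in each state. Hoxa10, which with its paralogs sets the lumbar vertebrae and the thigh, read 13.8, 6.91 and 21.3 RPM, 10.2, 7.24 and 18.5 RPM, 15.1, 19.5 and 12.4 RPM, and 17.8, 6.69 and 16.0 RPM. Its spread within a group was as wide as that between groups.

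Hoxa9, which is known for roles in blood progenitors and in muscle stem cells of aged mice, read 14.8, 11.7 and 15.6 RPM in uninjured WT and 7.49, 4.64 and 8.95 RPM in uninjured KO. In injured muscle it read 11.8, 12.4 and 13.8 RPM in WT and 8.59, 12.6 and 9.21 RPM in KO. The uninjured genotypes did not overlap, and in injured muscle replicate 2 of the KO lay among the WT libraries. Hoxc11, another hind limb gene, read 7.31, 13.8 and 17.2 RPM in uninjured WT, 8.79, 10.8 and 9.96 RPM in uninjured KO, 11.6, 13.8 and 10.4 RPM in injured WT, and 8.22, 8.74 and 8.04 RPM in injured KO. Here the injured genotypes did not overlap and the uninjured ones did.

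Hoxa7, a gene of the thoracic region, read 9.98, 17.6 and 6.52 RPM in uninjured WT, 4.95, 8.26 and 4.14 RPM in uninjured KO, 10.9, 6.06 and 10.6 RPM in injured WT, and 3.85, 20.03 and 3.64 RPM in injured KO. Injured KO replicate 2 was the highest of all 12 libraries, beside 2 libraries of its own group that were the lowest. Hoxc4 read 9.85, 4.26 and 9.45 RPM, 4.87, 10.3 and 6.20 RPM, 8.78, 5.28 and 8.15 RPM, and 5.46, 10.0 and 5.41 RPM. For Hoxc4 the replicates 2 lay at the low end in WT and at the high end in KO, in both states.

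Hoxd10, which patterns the hind limb and its motor neurons, read 4.83, 10.6 and 7.58 RPM, 4.98, 3.54 and 4.63 RPM, 3.53, 7.64 and 5.17 RPM, and 4.18, 2.99 and 4.11 RPM. Hoxc6, a gene of the thoracic region, read 4.99, 7.45 and 6.26 RPM, 2.70, 0.866 and 5.45 RPM, 6.68, 3.93 and 7.96 RPM, and 5.92, 5.20 and 4.88 RPM. Hoxa5, known for lung and neck development, read 8.14, 3.72 and 4.88 RPM in uninjured WT, 2.62, 0.236 and 1.75 RPM in uninjured KO, 4.58, 3.07 and 5.20 RPM in injured WT, and 1.87, 9.57 and 1.60 RPM in injured KO. Uninjured KO replicate 2 held the lowest and injured KO replicate 2 the highest value of Hoxa5, and these libraries carry the same number.

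**Figure D2:**
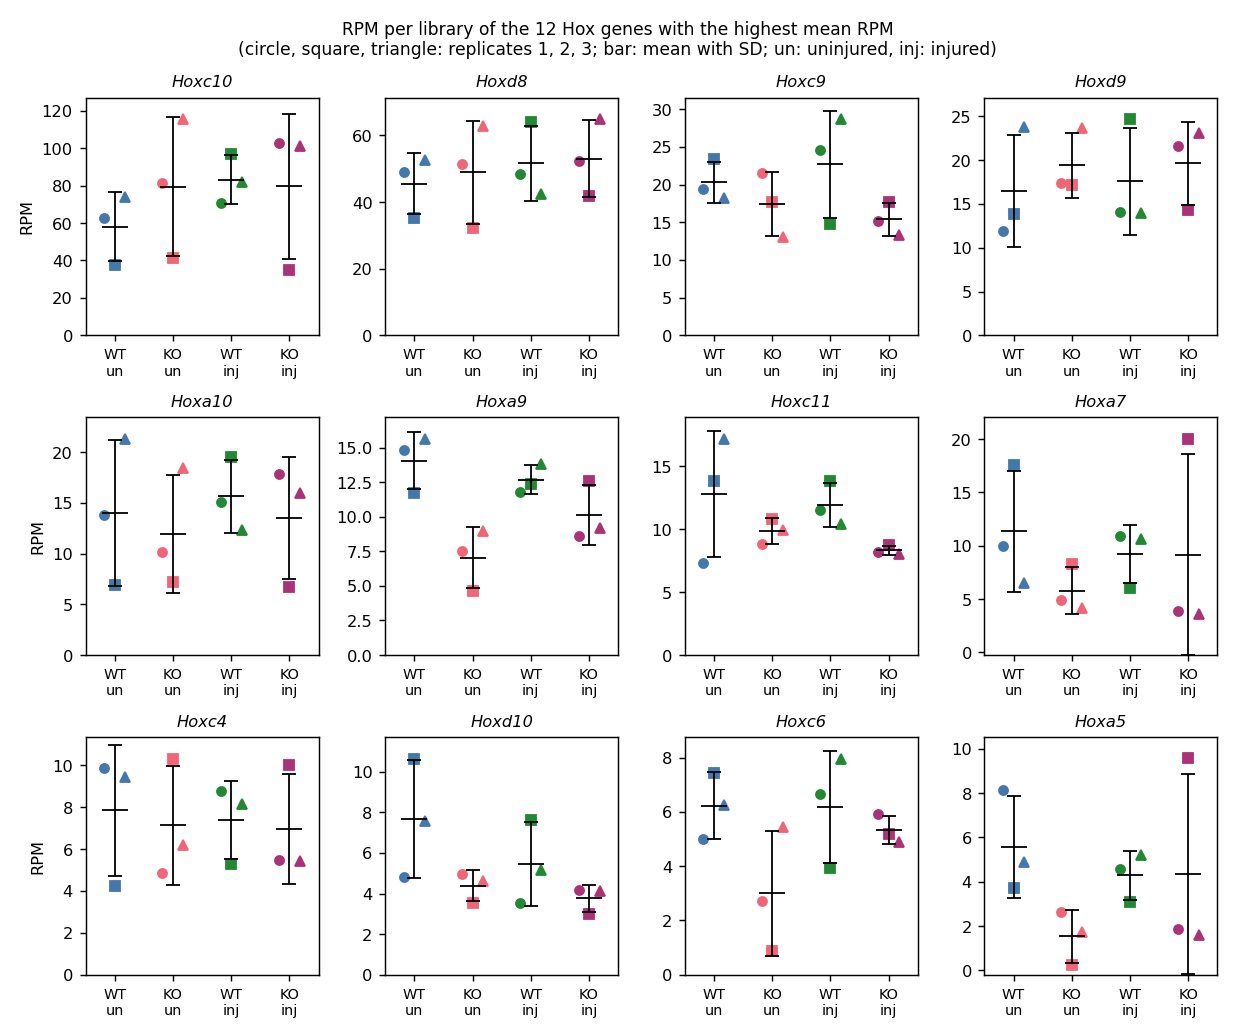
RPM in each library of the 12 Hox genes with the highest mean RPM, in order of that mean, with 4 groups of 3 libraries on each x axis and the group mean with its SD as bars. Groups overlap in most panels, the uninjured WT and KO libraries of Hoxa9 and Hoxa5 do not, and injured KO replicate 2 (purple square) is at 20.03 RPM for Hoxa7 and 9.57 RPM for Hoxa5.

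The comparison of Myf6 KO with WT in uninjured muscle asks whether Hox levels depend on Myf6. No Hox gene passed the test: of 21 Hox genes with enough signal, at least 1 RPM in 3 of the 6 libraries, 0 had an adjusted p under 0.05 (limma, Benjamini-Hochberg over all genes tested), where 35 of 12460 genes did, 0.281%. At an unadjusted p under 0.05 there were 4 of 21, beside 14.2% of all genes. On recovered reads edgeR (0.441% of all genes called) and DESeq2 (5.32%) also called 0 of the 21. The 18 Hox genes not tested were at low level or without a read.

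The largest difference was that of Hoxa5, at 5.58 ± 2.29 RPM (SD, n = 3) in WT and 1.54 ± 1.21 RPM in KO. It was -1.45 on the log2(RPM + 1) scale (SE 0.49, 95% interval -2.56 to -0.35, unadjusted p = 0.0155 and adjusted p = 0.229 in limma). Hoxa9 read 14.1 ± 2.07 RPM in WT and 7.03 ± 2.19 RPM in KO, a difference of -0.94 (SE 0.35, adjusted p = 0.265). Hoxa4, known for neck and upper trunk patterning, had the opposite sign at 1.56 ± 0.429 RPM in WT and 3.88 ± 1.49 RPM in KO, a difference of 0.91 (SE 0.38, adjusted p = 0.326). Hoxb4, known from blood stem cells, read 2.16 ± 0.441 RPM in WT and 0.698 ± 0.685 RPM in KO, a difference of -0.97 (SE 0.42, adjusted p = 0.341). These 4 genes are those with an unadjusted p under 0.05. Without the shallow WT replicate 2 the difference of Hoxa5 was -1.67 and that of Hoxa9 -1.05, and without KO replicate 2 they were -1.003 and -0.70. The same KO library moved the difference of Hoxb4 to -0.63 when left out, that of Hoxa4 to 0.67 and that of Hoxc6, described next, to -0.55. In both cases 0 of 20 Hox genes passed (10 of 12150 genes without the WT and 32 of 12277 without the KO library).

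Hoxa4 and Hoxa5 are direct neighbours and had opposite signs. The RefSeq span of Hoxa3 covers Hoxa4, Hoxa5 and Hoxa6, and 20 of the 39 Hox genes overlap another annotated gene, so for these the reads of neighbours could be split or dropped. How the authors assigned such reads, and whether strand was used, is not given in the sources used here.

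Uninjured WT and KO libraries did not overlap for 6 of the 21 genes. KO was below WT for Hoxa5, Hoxa9, Hoxb4 and Hoxc8, 4 of 21, beside 15.5% of all genes tested. KO was above WT for Hoxa4 and Hoxb7, 2 of 21, beside 6.20% of all genes. In WT replicate 2 each of these had 2 reads, below the floor of 3. Hoxc8 differed by -0.67 (SE 0.35, adjusted p = 0.416) and Hoxb7 by 0.85 (SE 0.41, adjusted p = 0.391), while Hoxc6 at -1.01 (SE 0.48, adjusted p = 0.381) and Hoxa7 at -0.81 (SE 0.43, adjusted p = 0.430) overlapped. Without WT replicate 2 the value of Hoxa7 was -0.47. The median difference of the 21 genes was -0.24, beside -0.18 over all genes, and 5 of 21 were above 0. The Hox median ranged from -0.43 (without KO replicate 3) to -0.20 (without KO replicate 1) with 1 library left out, and was -0.40 without WT replicate 2. With upper quartile scaling the median of all genes was 0.04, that of the Hox genes -0.03, and 10 of 21 were above 0. With TMM scaling these values were -0.015, -0.094 and 7 of 21. Without mitochondrial genes in the scaling they were -0.32, -0.38 and 4 of 21. On recovered reads 8 of 21 were above 0 with edgeR and also with DESeq2. How far the Hox genes shared a direction thus depended on the scaling.

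For most genes the libraries left room for sizeable differences. The 95% interval lay within 1 log2 unit for 3 of the 21 genes. That unit is 2-fold in RPM + 1, and more than 2-fold in RPM for genes at low level. It ran from -0.56 to 1.31 for Hoxc10 (difference 0.38, and 0.099 without WT replicate 2, 0.050 without KO replicate 3 and 0.78 without KO replicate 2) and from -0.66 to 0.80 for Hoxd8 (difference 0.07). In the same libraries the muscle fibre markers summed to 128571 to 134403 RPM in WT and 168250.0 to 190104 RPM in KO, and fibroblast markers to 587 to 1567 RPM in WT and 473 to 1017 RPM in KO, and all 8 genes of each list had reads. Mitochondrial genes held 13.8% to 22.3% of the reads in WT and 3.63% to 15.3% in KO. The part of the marker levels in the Hox values was not tested, and the fit without mitochondrial genes in the scaling is given above. In bulk tissue, fewer cells of a type and less RNA per cell cannot be told apart.

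**Figure D3:**
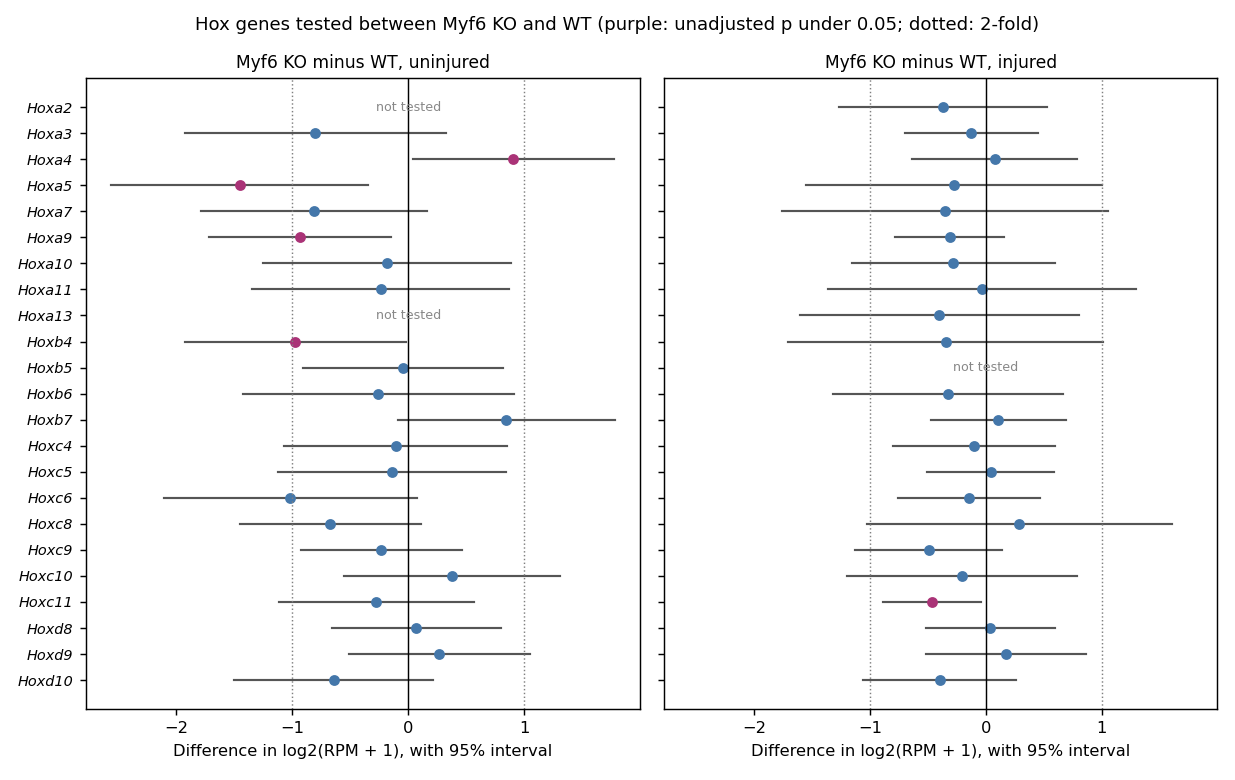
Difference between Myf6 KO and WT in log2(RPM + 1) for each Hox gene tested, with its 95% interval, in uninjured (left) and injured (right) muscle. Purple points have an unadjusted p under 0.05, 4 on the left and 1 on the right, and no gene passed the adjusted threshold. Dotted lines mark 2-fold in RPM + 1, which is more than 2-fold in RPM for genes at low level.

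In injured muscle the genotypes were again compared over their own 6 libraries. Of 22 Hox genes tested, 0 passed, where 34 of 12625 genes did, 0.269%. At an unadjusted p under 0.05 there was 1 Hox gene, beside 10.3% of all genes. On recovered reads edgeR (0.261% of all genes called) and DESeq2 (3.38%) also called 0 of the 22. That gene was Hoxc11, at 11.9 ± 1.73 RPM in WT and 8.33 ± 0.366 RPM in KO, a difference of -0.46 (SE 0.18, 95% interval -0.88 to -0.04, unadjusted p = 0.0353 and adjusted p = 0.445 in limma). It was also the 1 gene of 22 whose KO libraries all lay below WT, beside 8.63% of all genes, and none of 22 lay all above, beside 8.29%.

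Hoxc9 differed by -0.49 (SE 0.27, adjusted p = 0.576) and Hoxa9 by -0.31 (SE 0.20, adjusted p = 0.631). Hoxc9 stood at -0.76 without WT replicate 2 and -0.30 without WT replicate 3. For 10 of the 22 genes the 95% interval lay within 1 log2 unit. The median difference of the 22 genes was -0.24, beside 0.01 over all genes, with 6 of 22 above 0, and upper quartile and TMM scaling also gave 6 of 22. This median moved with single libraries but stayed below 0. It was -0.084, -0.11 and -0.0745 without KO replicates 1, 2 and 3 in turn. Without WT replicates 1, 2 and 3 it was -0.22, -0.28 and -0.15. These fits tested 19 or 20 Hox genes, so the set of genes changed too.

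These results turned on injured KO replicate 2. It held the highest value of 7 of the 23 Hox genes tested over all 12 libraries (30.4%, beside 19.3% of all genes), namely Hoxa2, Hoxa5, Hoxa7, Hoxb4, Hoxb5, Hoxc5 and Hoxc8, and the lowest of 3, Hoxa10, Hoxc10 and Hoxd10. Hoxb4 for instance read 4.98 RPM in that library and 0.642 and 0.547 RPM in the other injured KO libraries, beside 2.85, 0.973 and 3.10 RPM in injured WT. Without it, Hoxa7 (-1.06, SE 0.26, adjusted p = 0.0330) and Hoxa5 (-0.93, SE 0.24, adjusted p = 0.0374) passed in limma, 2 of 19 Hox genes (10.5%), where 2343 of 12312 genes passed, 19.0%. With it, Hoxa7 differed by -0.35 (adjusted p = 0.879) and Hoxa5 by -0.28 (adjusted p = 0.897). The share of Hox genes called without this library was thus not above that of all genes. The part of the Schwann cell and endothelial markers in its Hox levels was not tested.

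With all libraries, no Hox gene had KO and WT apart in the same direction in both states, of 20 tested in both, beside 2.13% of all genes above and 3.16% below. In injured muscle without KO replicate 2, 2 of 22 genes had KO all above WT, beside 30.1% of all genes, and 8 of 22 all below, beside 26.3%. In both states there were then 4 genes: Hoxa4 above, beside 4.75% of all genes, and Hoxa5, Hoxa9 and Hoxb4 below, beside 11.3%. Hoxa4, which is read at 1.80, 1.06 and 1.81 RPM in uninjured WT and at 3.23, 5.59 and 2.83 RPM in uninjured KO, stood at 2.40, 2.51 and 1.99 RPM in injured WT and at 3.69, 1.27 and 2.92 RPM in injured KO. The uninjured and injured libraries are read as limbs of the same animals, so the states are not independent replicates of the genotype.

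**Figure D4:**
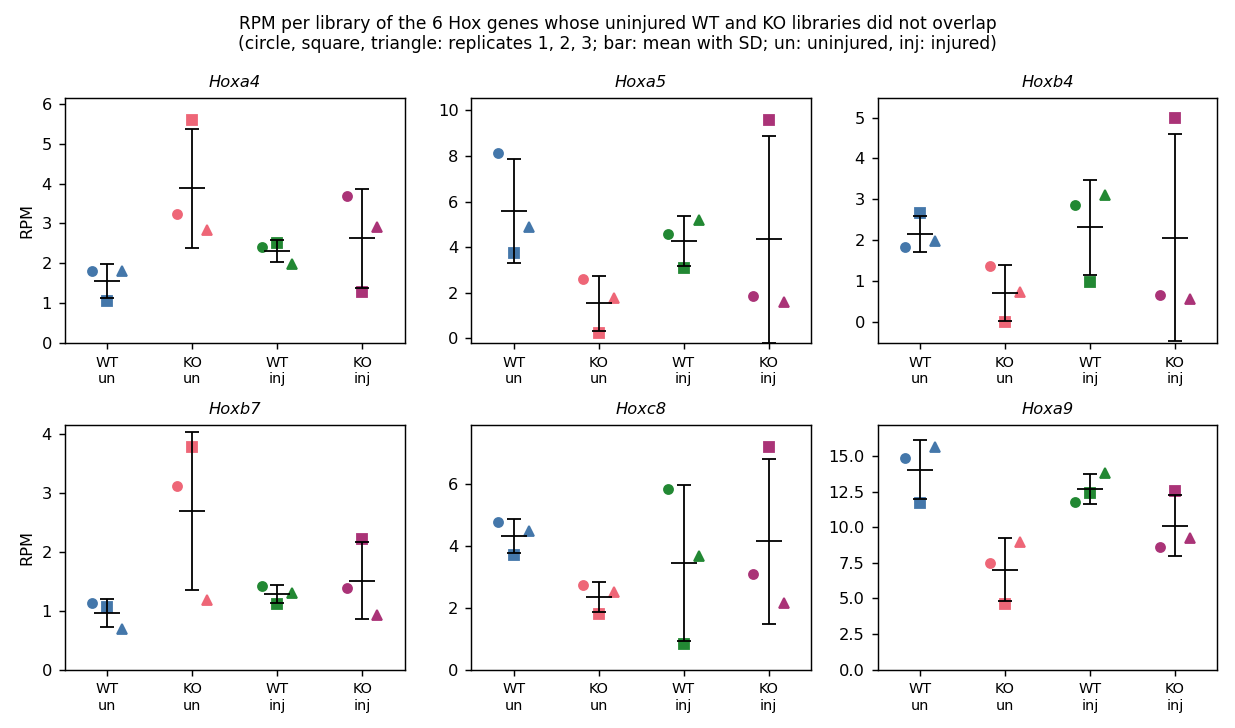
RPM in each library of the 6 Hox genes whose uninjured WT and KO libraries did not overlap, with the group mean and SD as bars. In injured muscle all 6 overlap, and for Hoxa5, Hoxb4 and Hoxc8 the square of injured KO replicate 2 is the highest of the 12 libraries.

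By cluster, the a genes summed to 53.1 ± 6.35 RPM (SD, n = 3) in uninjured WT, 33.5 ± 7.56 RPM in uninjured KO, 52.6 ± 2.61 RPM in injured WT and 46.5 ± 10.6 RPM in injured KO, where replicates 1, 2 and 3 stood at 42.2, 58.6 and 38.8 RPM. As a share of all Hox RPM the a cluster held 22.4%, 22.7% and 20.8% in uninjured WT and 13.9%, 15.1% and 14.1% in uninjured KO, which did not overlap. In injured muscle it held 20.1%, 18.8% and 19.0% in WT and 15.7%, 26.5% and 14.2% in KO, where replicate 2 was the highest of all 12 libraries. The shares of the c and d clusters in uninjured muscle did not overlap either, at 44.9% to 46.6% in WT and 48.3% to 53.2% in KO for c, and 27.6% to 29.8% in WT and 30.7% to 31.2% in KO for d. Shares of 1 library sum to a whole, so these are not separate results, and they carry no test of their own.

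The sums of the other clusters overlapped between the genotypes in both states. The b genes summed to 4.12 to 15.8 RPM per library, the highest being injured KO replicate 2. The c genes summed to 112 ± 20.4 RPM in uninjured WT, 121 ± 36.2 RPM in uninjured KO, 138 ± 5.69 RPM in injured WT and 122.7 ± 30.6 RPM in injured KO (143, 87.4 and 137 RPM), and the d genes to 70.3 ± 12.6, 72.9 ± 19.2, 75.5 ± 18.6 and 76.8 ± 16.3 RPM in the same order. Replicate 2 was the lowest injured KO library for the c and d genes, and without it the b, c and d sums of the injured genotypes still overlapped. All 39 genes together summed to 173 to 295 RPM per library. By paralog number, the genes numbered 10 summed to 44.8 to 139 RPM and those numbered 9 to 41.4 to 57.6 RPM.

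**Figure D5:**
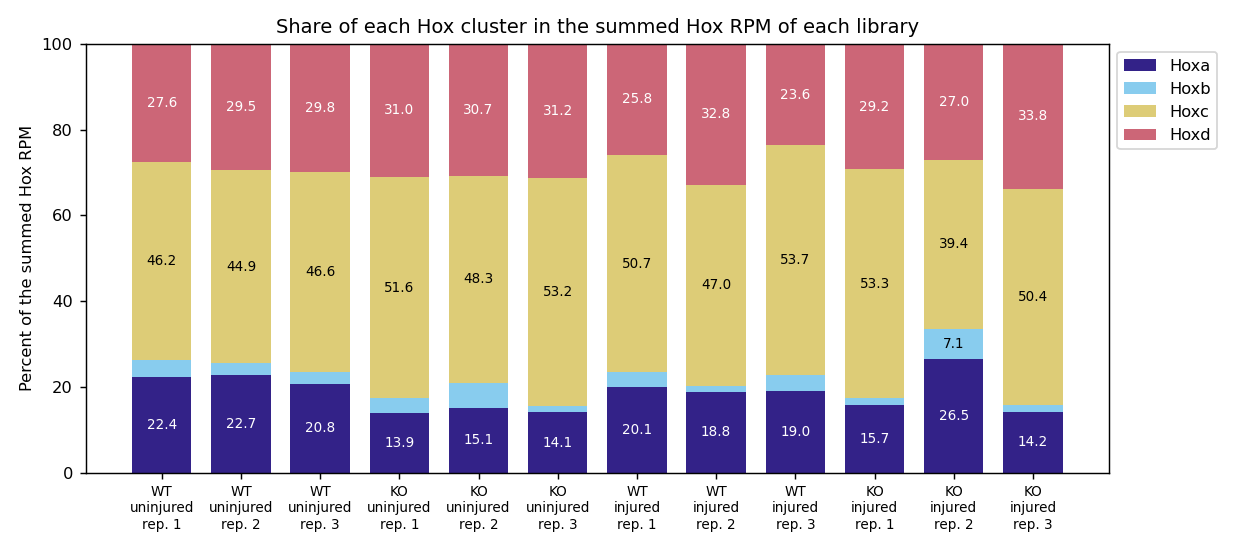
Share of the 4 Hox clusters in the summed Hox RPM of each of the 12 libraries, in percent. The a cluster is at 20.8% to 22.7% in uninjured WT and 13.9% to 15.1% in uninjured KO, and in injured KO replicate 2 it reaches 26.5%.

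Injury was compared within each genotype over all 12 libraries in 1 fit. In WT, 0 of 23 Hox genes passed, as did 0 of 13337 genes (0% called), and at an unadjusted p under 0.05 there were 0 Hox genes beside 1.29% of all genes in limma. In KO, again 0 of 23 Hox genes and 0 of 13337 genes passed, with 0 Hox genes and 3.51% of all genes at an unadjusted p under 0.05, and edgeR called 0 genes in both genotypes. A fit with the animal as a block, taking the numbers as animals, also called 0. Hoxc6 in KO came nearest, at 3.005 ± 2.31 RPM uninjured and 5.33 ± 0.530 RPM injured, a difference of 0.83 (SE 0.40, adjusted p = 0.728). Leaving out the uninjured KO libraries 2 or 3 gave 0.37 or 1.27, in that order.

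Hoxd10 was the 1 gene of 23 that was lower in the injured limb of all 6 animals, beside 4.15% of all genes with 1 sign in all 6. Its change by animal was -0.36, -0.43 and -0.48 in WT and -0.21, -0.19 and -0.14 in KO, in log2(RPM + 1). The limma fit, which does not pair the limbs, gave -0.42 (SE 0.33, adjusted p = 1.0) in WT. With 1 library left out, which breaks a pair, this ranged from -0.68 without uninjured replicate 1 to -0.18 without uninjured replicate 2. It was -0.19 and -0.66 without injured replicates 1 and 2. In KO Hoxd10 went from 4.38 ± 0.751 to 3.76 ± 0.668 RPM. Hoxa4 was the 1 gene whose injured WT libraries all lay above the uninjured WT ones, beside 7.48% of all genes, and none lay all below, beside 2.54%. In uninjured WT replicate 2 Hoxa4 had 2 reads, below the floor of 3. The nearest values were 1.81 RPM uninjured and 1.99 RPM injured, both in replicate 3. Hoxc11 was the 1 gene whose injured KO libraries all lay below the uninjured KO ones, beside 0.622%, and none lay all above, beside 6.12%. Its nearest values were 8.79 RPM in uninjured KO replicate 1 and 8.74 RPM in injured KO replicate 2. The difference of Hoxc11 in KO was -0.21 (SE 0.29, adjusted p = 0.799 in limma). The injured limbs of WT and KO therefore showed no Hox change that passed, at intervals that lay within 1 log2 unit for 9 of 23 genes in WT and 8 of 23 in KO.

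The interaction, that is whether the injury difference was unequal between KO and WT, was tested for the same 23 genes. None passed, as did 0 of 13337 genes (0%), and 0 Hox genes had an unadjusted p under 0.05 beside 1.56% of all genes in limma. The value was -0.83 for Hoxa4 (SE 0.47, adjusted p = 1.0) and 1.18 for Hoxa5 (SE 0.76, adjusted p = 1.0), with 1 gene of 23 at an interval within 1 log2 unit. Without injured KO replicate 2 the value was -0.52 for Hoxa4 and 0.53 for Hoxa5, and without uninjured KO replicate 2 it was 0.72 for Hoxa5. Hoxb7 was the 1 gene of 23 that was higher in the injured limb of every WT animal and lower in that of every KO animal, beside 2.23% of all genes with such opposite signs (interaction -0.74, SE 0.46, adjusted p = 1.0). In uninjured WT replicate 2 Hoxb7 had 2 reads, below the floor of 3, so the sign in that animal lies within counting error.

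The remaining genes had fewer reads. Hoxa3 read 0.0787 to 4.18 RPM, Hoxb6 0.668 to 4.05 RPM, Hoxb7 0.692 to 3.78 RPM, Hoxc5 0.945 to 3.49 RPM and Hoxb5 0.337 to 2.88 RPM over the 12 libraries. Injured WT replicate 2 held the highest values of Hoxa11 and Hoxa13, 5.28 and 3.93 RPM, the genes of the distal limb, and the lowest of Hoxc8, 0.824 RPM. The same library had the lowest sums of adipocyte (52.2 RPM) and Schwann cell markers (56.4 RPM), and their part in these values was not tested. Uninjured KO replicate 2 held the lowest value of 9 of 23 Hox genes, beside 45.5% of all genes, so low Hox values there were no more frequent than low values in general. Hoxb9, Hoxd4, Hoxa2, Hoxa6 and Hoxb8 had means of 0.369 to 0.841 RPM, and Hoxb2, Hoxb3, Hoxd3 and Hoxd13 had 8 to 36 reads in all.

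RNA of genes whose proteins act with Hox proteins on DNA was found in all groups. Of 9 cofactors of the Pbx, Meis and Pknox families, 8 were tested in each genotype comparison and 0 passed in either direction, with median differences of -0.34 uninjured and 0.01 injured, beside -0.18 and 0.01 over all genes. Among them, Pknox2 read 15.4 to 38.8 RPM, Pbx2 9.05 to 22.4 RPM and Pknox1 4.70 to 10.2 RPM over the 12 libraries. Of 21 genes for regulators of Hox chromatin, 21 were tested uninjured and 20 injured, and 0 passed. They include genes for Polycomb proteins, which hold Hox genes silent, and for Trithorax proteins, which keep them active. The median differences of these regulators were -0.56 and -0.11, with 7 of 21 and 6 of 20 above 0. At an unadjusted p under 0.05 in limma there were 3 of 21 uninjured and 1 of 20 injured, beside 14.2% and 10.3% of all genes. Of the regulators, Bmi1 read 13.2 to 47.4 RPM, Dot1l 12.8 to 49.9 RPM, Ctcf 18.8 to 43.4 RPM and Ezh1 16.0 to 40.4 RPM. Dot1l was 1 of the 3, at 35.3 ± 6.42 RPM in uninjured WT and 15.9 ± 2.72 RPM in uninjured KO (adjusted p = 0.156 in limma).

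Among genes that set limb identity or pattern in the embryo, Pitx1 and Tbx4, the hind limb pair, read at most 1.35 and 1.83 RPM, and Tbx5, the forelimb gene, at most 0.941 RPM. Shox2, a gene of the proximal limb, read 0.472 to 5.007 RPM. Of 6 such genes 2 were tested, and 0 passed. The Evx and ParaHox genes, 8 close relatives of Hox, were too low to be tested, and 7 of the 8 had no read. Among 17 other homeobox genes of muscle, 15 were tested, 0 passed, and Lbx1 read 34.4 to 70.2 RPM and Prrx1 17.9 to 47.1 RPM. Transcripts of the clusters other than Hox genes were scarce, with Hoxa11os, antisense to Hoxa11, at 0.16 to 2.96 RPM and Hotair, a long noncoding RNA between Hoxc11 and Hoxc12, at 0.08 to 1.87 RPM. Hoxa11os overlaps Hoxa11, so reads of this pair could be split or dropped.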

How the data were processed

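The 12 RNA libraries and 1 ChIP-seq peak list were used. The authors deposited RPM values per gene, scaled to each library's assigned reads, with their own log2 fold changes and q-values (p-values adjusted), per the file headers. Peaks were called by the authors with MACS2 2.1.0.20140616, and the deposited list gives position, fold enrichment, pileup signal and −log10 p and q, per the file headers. The submitters' processing notes also list HISAT2 2.1.0, Bowtie 1.1.0, SAMtools, featureCounts, DESeq2, mm10 and GRCm38.p5, without roles. The chromosomes of mm10 and of RefSeq's GRCm38.p6 share coordinates. TruSeq RNA v2 libraries were made from total RNA, per the labels' protocols. Whole reads were recovered from RPM: 100% of low values tested were whole within 0.1 read.

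Differences were tested with limma on log2(RPM + 1), for genes that reached 1 RPM in 3 or more libraries of the fit, two-sided, adjusted by Benjamini-Hochberg, threshold 0.05. The script was tested on simulated data. The labels do not say that replicate numbers pair the genotypes, and the main fits did not pair them. Injured and uninjured libraries of 1 genotype carry the same numbers, read here as animals though the labels do not say so (correlations of deviations 0.28, -0.23 and 0.02 in WT, 0.02, 0.50 and 0.63 in KO). Nothing says that other handling was independent, so p-values measure the spread between these samples. The members and gene lists were chosen with earlier results of these data known. Values in every library were given for Hox genes that passed, the 12 of highest mean RPM, and those with genotypes apart in both states; a few others were singled out after their values were seen. Some genes are not reported here.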

Additional observations from a re-analysis of the deposited data

Results flagged for a closer look

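Hoxb7, a gene of the trunk, moved up in the injured limb of all 3 WT animals and down in that of all 3 KO animals. It read 1.13, 1.06 and 0.692 RPM uninjured and 1.43, 1.12 and 1.30 RPM injured in WT, and 3.12, 3.78 and 1.19 RPM uninjured and 1.39, 2.21 and 0.931 RPM injured in KO. The interaction was -0.74 on the log2(RPM + 1) scale (SE 0.46, unadjusted p = 0.137, adjusted p = 1.0 in limma), so the difference between genotypes did not pass. It was 1 of 23 Hox genes with opposite signs in all animals, beside 2.23% of all genes. The 1.06 RPM of uninjured WT replicate 2 was 2 reads, below the floor of 3. The rise in that animal was 0.04 in log2(RPM + 1), so its sign lies within counting error.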

How the results depend on the processing

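The count of Hox genes called stayed at 0 under all alternatives for the injury comparisons and the interaction (22 settings each), and under 17 of 18 for KO against WT in each state, the authors' deposited q-values included. The exceptions were uninjured muscle with the replicate number as a block, where 1 Hox gene passed (Hoxa5, adjusted p = 0.0446, with 752 of 12460 genes), and injured muscle without KO replicate 2, where 2 passed. With each library left out in turn the count was 0 each time in uninjured and 0 to 2 in injured muscle. The labels do not say what, if anything, a replicate number shares between the genotypes. Deviations of same-numbered libraries correlated at 0.04, 0.26 and 0.37 uninjured, with 5 of 6 libraries closest to their own number. In injured muscle they correlated at -0.45, -0.60 and -0.30, with 0 of 6. Whether the number marks a batch was not tested. Hoxd8 in uninjured muscle changed sign without mitochondrial genes in the scaling (-0.083) and without WT replicate 2 (-0.10) or KO replicate 3 (-0.13), over a range of -0.13 to 0.34 with 1 library left out. In injured muscle Hoxa5 changed sign with edgeR (0.0052), DESeq2 (0.027) and without KO replicates 1 (0.011) or 3 (0.083), ranging from -0.93 to 0.083, and Hoxa7 with DESeq2 (0.0090) and without KO replicate 3 (0.026), ranging from -1.06 to 0.026. The cause was not tested. Over the fits run, 14 of 21 tested Hox genes kept their sign in uninjured and 10 of 22 in injured muscle for KO against WT, 10 of 23 for injury in WT, 11 of 23 for injury in KO and 10 of 23 for the interaction. The 9 peaks near the clusters became 3 at a fold enrichment of at least 10, and 3 between the first and last Hox gene. The 4 genes apart in both states without injured KO replicate 2, and edgeR with a lower filter, were chosen after seeing the data. Uninjured WT replicate 2, at 1880087 reads, has a floor of 1.60 RPM, so a 0 there limits a level only to that value.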
